A study of Mus musculus with 6 samples.

Results

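Immune checkpoint and lymphocyte ligand genes were followed in N18-Fms mouse prostate cancer cells stimulated with CSF-1, the macrophage colony-stimulating factor. The group held 9 genes chosen by name (Cd274, Pdcd1lg2, Cd80, Cd86, Ctla4, Pvr, Crtam, Klrg1 and Cd47) of 36028 genes with a usable probe, and they were read by 12 probes. Of the 9, 8 were among the 24634 genes tested, because no group had Cd86 above background on its 2 arrays.

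The cells, spelled N18-CFMS in the labels, came from the TRAMP C2H line, a clonal epithelial line of a transgenic mouse prostate tumor. N18 is 1 luciferase-transfected clone of it, to which murine c-fms, the gene of the CSF-1 receptor, was added with a retrovirus before cells bearing the receptor were sorted, so all 3 groups carried both transgenes and were grown with serum and dihydrotestosterone. RNA was hybridized to 6 single-color Agilent arrays, 2 for each group: Control cells left unstimulated (untreated in one label, vehicle in another), 24H CSF1 cells stimulated for 24 h with recombinant mouse CSF-1 at 100 ng/mL, and 48H CSF1 cells stimulated for 48 h. The times are those of the labels; the methods of the study give shorter ones, and the study describes the parent clones as secreting CSF-1 themselves.

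Checkpoint proteins are surface molecules through which cells that meet lymphocytes or macrophages raise or lower the response of those cells. PD-L1 and PD-L2, encoded by Cd274 and Pdcd1lg2, bind the inhibitory receptor PD-1 on T cells, whereas Cd80 and Cd86 bind both the activating receptor Cd28 and the inhibitory receptor Ctla4. Pvr (CD155) is read by Tigit, Cd96 and Cd226 on T and natural killer (NK) cells, Crtam and Klrg1 are lymphocyte receptors that bind Cadm1 and cadherins, and Cd47 signals to Sirpa on macrophages against being engulfed.

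The start regions of Cd274 and Pdcd1lg2 are shown because these genes are direct neighbours on chromosome 19 and encode the 2 ligands of PD-1, yet gave different values on these arrays. Each line holds the 250 bases upstream of the annotated start, on the plus strand of build GRCm38.p6 as given by RefSeq, at chr19:29367188-29367437 for Cd274 and chr19:29410669-29410918 for Pdcd1lg2.
Cd274: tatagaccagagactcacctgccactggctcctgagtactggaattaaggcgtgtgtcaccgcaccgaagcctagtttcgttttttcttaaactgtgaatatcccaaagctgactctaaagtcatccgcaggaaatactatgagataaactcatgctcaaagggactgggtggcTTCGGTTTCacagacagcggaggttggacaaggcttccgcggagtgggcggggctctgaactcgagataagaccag
Pdcd1lg2: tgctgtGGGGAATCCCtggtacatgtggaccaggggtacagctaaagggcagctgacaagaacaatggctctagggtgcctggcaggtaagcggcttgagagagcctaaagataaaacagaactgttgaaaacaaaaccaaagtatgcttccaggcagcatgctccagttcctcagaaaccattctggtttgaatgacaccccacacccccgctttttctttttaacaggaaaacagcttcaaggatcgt
Capitals mark matches to motifs searched on both strands in 32851 promoter windows of the same length. In the Cd274 line they mark GAAANNGAA on the minus strand, letters bound by interferon regulatory factors (IRF), at positions -76 to -68 from the start, which 7.13% of the windows hold. In the Pdcd1lg2 line they mark an NF-kB match, found in 7.25% of the windows. Also searched were TTCNNNGAA, bound by STAT factors (7.02%), TGANTCA, bound by AP-1 (6.75%), the E-box CACGTG (6.02%), the interferon-stimulated response element core, which is the IRF motif with 1 more A at its end (2.98%), and a stricter NF-kB form that ends in TTTCC (1.41%). The last 2 were tried first and matched in no window of these genes, so the matches shown depend on the looser letters. A match is a description of the letters and not a bound site. The reference table held windows for 5 of the 9 genes, and among those of Cd80, Ctla4 and Cd47 the matches were an AP-1 sequence in Cd80 and an IRF sequence in Ctla4. Windows for Cd86, Pvr, Crtam and Klrg1 were not used here.

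Between 58.7% and 72.0% of the 59305 spots other than controls were well above background on each array, and 0 were saturated. Replicate arrays correlated at 0.9926 to 0.9936 across the genes tested, which are not independent. The first 24H CSF1 array lay on another slide than the other 5 arrays. Among epithelial markers, Cdh1 was well above background on 0 arrays and Epcam on 1; of the 8 prostate markers listed 5 were tested, and Krt8, a keratin of luminal cells, was the one called (1.98 higher on the log2 scale at 48 h, adjusted p 0.0106). Levels below are the log2 of the signal minus that of the 75th percentile of the same array, so they compare arrays for 1 probe and never 1 probe with another.

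After 24 h of CSF-1, 6 of the 8 genes tested were higher than in Control cells and 0 were lower (limma, Benjamini-Hochberg adjusted p under 0.05 over all genes tested). The 6 were Cd274, Ctla4, Pvr, Crtam, Klrg1 and Cd47, and over all genes 8.02% were called higher and 5.99% lower. After 48 h, 5 of the 8 were called higher, all but Pvr of the same 6, and 0 lower, against 6.58% and 7.39% over all genes; in either direction 14% of all genes were called at each time. At an unadjusted p under 0.05 and a 2-fold change, after the p and fold that the study draws for its arrays without naming an adjustment, there were 5 higher at 24 h (Cd47 fell short at 1.99-fold) and 6 at 48 h, with 0 lower at both, beside 5.86% and 4.66% of all genes higher and 1.82% lower at each time. At an unadjusted p under 0.05 the count was 6 at each time, all higher, beside 31.3% of all genes in either direction at 24 h and 30.9% at 48 h. Both times were compared with the same 2 Control arrays. The median log2 difference of the 8 genes was 1.25 at 24 h and 1.26 at 48 h, beside 0.037 and -0.044 over all genes, but Ctla4 entered the test only through the 48H CSF1 arrays and Klrg1 only through the stimulated arrays, where each was highest, so neither the counts nor the medians are support for a shift of the group. At 24 h 1976 of 3452 genes called over the whole array were higher, a split that became 1153 of 4927 when arrays were centred on their medians, while the same count of 6 of the 8 was called. Fewer of the 8 were called at 24 h when any 1 of the arrays compared was left out, and fewer of all genes were called at both times. The count of the 8 at 48 h changed less. In these fits the 24 h log2 differences of the 6 lay between 0.91, for Cd47, and 2.81, for Cd274.

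**Figure D1:**
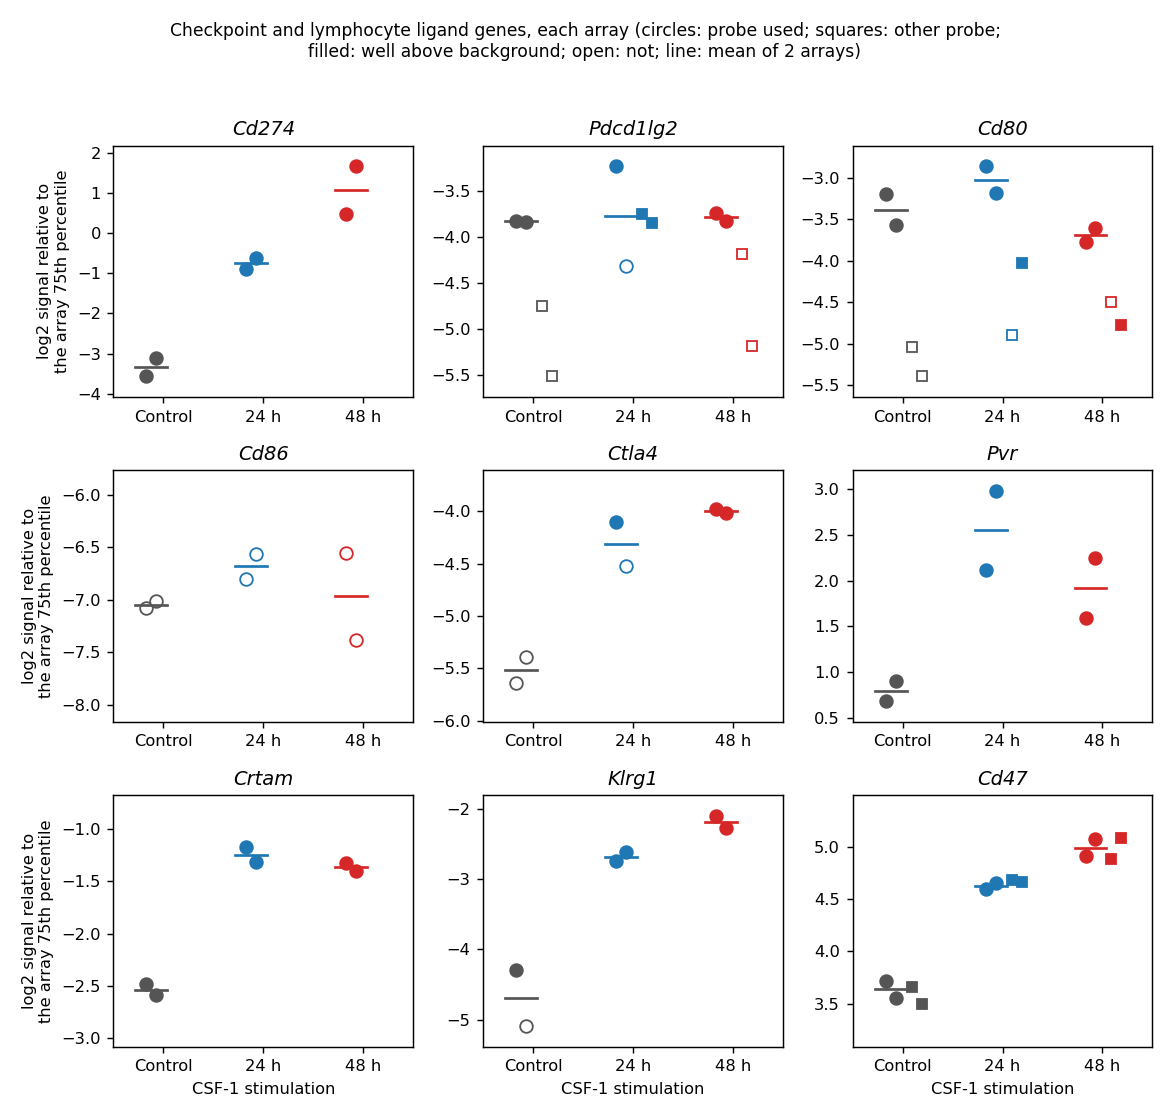
Level of each gene on each array, as log2 signal relative to the 75th percentile of the array (vertical axis, scaled separately for each gene), in Control cells and in the 24H CSF1 and 48H CSF1 groups; circles are the probe that stands for the gene, squares its other probe, open symbols are not well above background, and short lines are the mean of 2 arrays. By the circles, Cd274, Ctla4, Pvr, Crtam, Klrg1 and Cd47 lay above both Control arrays on all 4 stimulated arrays. Ctla4 was open in Control cells, and Cd86 was open on all 6.

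Cd274, the gene of PD-L1, was the member with the largest log2 difference from Control at 48 h. Cd274 was also the largest at 24 h, except under the following settings. With normexp background correction Pvr gave 1.66 and Cd274 1.61, and with normexp and quantiles Pvr gave 1.74 and Cd274 1.51. Without Control replicate 1 Klrg1 gave 2.41 and Cd274 2.37. The Cd274 probe, at chr19:29462363-29462422 of build mm9, was well above background on every array. Its level was -3.56 and -3.12 on the Control arrays, -0.88 and -0.62 on the 24H CSF1 arrays, and 0.48 and 1.67 on the 48H CSF1 arrays. The 3 groups did not overlap, and each later group lay above the earlier one on both arrays. The log2 difference from Control was 2.59 (SE 0.408) at 24 h, a 6.02-fold increase with an adjusted p of 0.0182. At 48 h it was 4.42 (SE 0.408), a 21.4-fold increase with an adjusted p of 0.00459. The 48H CSF1 arrays exceeded the 24H CSF1 arrays by 1.83 (95% interval 0.8 to 2.85), which had an unadjusted p of 0.0054 but an adjusted p of 0.179, so this step was not called by limma. The call at 24 h was lost when any 1 of the 4 arrays compared was left out, with log2 differences between 2.37 and 2.81 and adjusted p up to 0.088, whereas the call at 48 h was kept without any 1 array, at 3.82 to 5.01. With normexp background correction, which adds an offset and so compresses dim signals, the differences were 1.61 and 3.29, both still called.

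Pdcd1lg2, the gene of PD-L2, has 2 probes that overlap on chromosome 19, and their levels differed in pattern. They share 57 of their 60 bases at mm9 positions and differ at 2 of these, shown in capitals in the stretch chr19:29545500-29545529 of build mm9 as printed on the array.
A_55_P2122075: tggaagcatttaagcaacacgtCaagtGcc
A_55_P2187141: tggaagcatttaagcaacacgtTaagtAcc
Counted from the first base printed, the changes from the first probe to the second are C23T and G28A. The first probe, the brighter, read -3.82 and -3.83 in Control cells, -3.23 and -4.31 at 24 h and -3.74 and -3.82 at 48 h, with the -4.31 array not well above background. The 24 h arrays lay on either side of the other 4. Its log2 difference was 0.05 at both times (95% interval -0.81 to 0.92 at 24 h and -0.82 to 0.91 at 48 h, adjusted p 0.941 and 0.948), and at 24 h it was -0.49 without 24H CSF1 replicate 1. The second probe, which of the 2 is the one annotated to a RefSeq transcript, read -4.75 and -5.51 in Control cells, -3.75 and -3.84 at 24 h and -4.18 and -5.18 at 48 h. It was well above background on the 24H CSF1 arrays alone. It was at least 1.9-fold higher at 24 h than in Control cells, with a limma p of 0.0906 adjusted over all probes, and was not well above background in either group at 48 h. No difference of Pdcd1lg2 was therefore called, and the intervals of the brighter probe leave room for changes of almost 1 log2 unit in either direction.

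Cd80 and Cd86 encode the B7 ligands that antigen-presenting cells use to costimulate T cells. The brighter Cd80 probe (mm9 chr16:38486772-38486831) read -3.19 and -3.57 in Control cells, -2.86 and -3.18 at 24 h and -3.77 and -3.60 at 48 h, well above background on all 6 arrays. The 24H CSF1 arrays were the highest and the 48H CSF1 arrays the lowest, but they lay close to the nearest Control array. The log2 difference from Control was 0.36 at 24 h (95% interval -0.12 to 0.84, adjusted p 0.268) and -0.3 at 48 h (-0.78 to 0.18, adjusted p 0.349). Between the times Cd80 differed by -0.66, with an unadjusted p of 0.0155 and an adjusted p of 0.248. A second Cd80 probe read -5.04 and -5.39 in Control cells, -4.89 and -4.03 at 24 h, and -4.50 and -4.78 at 48 h. It was well above background on 2 of 6 arrays, 1 at each time of stimulation. Its log2 difference from Control was 0.75 at 24 h and 0.57 at 48 h, untested because of the filter. No fold is given for it, since these values rest on arrays not well above background. At 48 h the 2 probes thus differed in direction. The Cd86 probe (mm9 chr16:36603961-36604020) read between -7.38 and -6.55 and was not well above background on any array, so no fold is given for it.

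Pvr encodes CD155, the ligand of Tigit, Cd96 and Cd226. Its probe (mm9 chr7:20489657-20489716) read 0.69 and 0.91 in Control cells, 2.12 and 2.97 at 24 h, and 1.59 and 2.24 at 48 h. All 4 stimulated arrays lay above both Control arrays, and the arrays of the 2 times overlapped. The log2 difference was 1.74 (SE 0.346) at 24 h, 3.35-fold with an adjusted p of 0.0332. At 48 h it was 1.11 (SE 0.346), 2.16-fold with an unadjusted p of 0.0212 and an adjusted p of 0.0956, so it was not called. It was called at 48 h with normexp (1.08, adjusted p 0.0339), with normexp and quantiles (1.12, adjusted p 0.0265), with an intensity trend in the spread (1.11, adjusted p 0.0265) and with a replicate block (1.11, adjusted p 0.0325). The 24 h call was lost without 24H CSF1 replicate 2 (1.32, adjusted p 0.0954), without Control replicate 1 (1.63, adjusted p 0.129) and without Control replicate 2 (1.86, adjusted p 0.119). The difference between the times, -0.63, had an adjusted p of 0.488, so the call at 24 h and its lack at 48 h do not show that the times differed.

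Cd47, which tells macrophages not to engulf the cell, was read by 2 probes that gave nearly the same values. The brighter (mm9 chr16:49896476-49896535) read 3.72 and 3.56 in Control cells, 4.6 and 4.65 at 24 h, and 4.91 and 5.07 at 48 h. Control arrays were lowest and 48H CSF1 arrays highest, with no overlap between groups. The log2 difference was 0.99 (SE 0.123) at 24 h, 1.99-fold with an adjusted p of 0.01, and 1.35 (SE 0.123) at 48 h, 2.56-fold with an adjusted p of 0.00442. The other probe (mm9 chr16:49906910-49911025, a span longer than the probe) gave 1.09 and 1.4, with p of 0.0109 and 0.00586 adjusted over all probes. The step of 0.36 from 24 h to 48 h had an unadjusted p of 0.0284 and an adjusted p of 0.298. At 24 h adjusted p rose to between 0.0535 and 0.0594 without either 24H CSF1 array or without Control replicate 2, at differences from 0.91 to 1.02, whereas the 48 h call was kept without any 1 array.

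Crtam, Klrg1 and Ctla4 encode receptors known from T and NK cells. The Crtam probe (mm9 chr9:40781010-40781069) read -2.48 and -2.59 in Control cells, -1.17 and -1.32 at 24 h, and -1.33 and -1.40 at 48 h, well above background on every array. The 4 stimulated arrays lay close to each other and more than 1 log2 unit above both Control arrays. The log2 difference was 1.29 (SE 0.116, 2.45-fold, adjusted p 0.00478) at 24 h and 1.17 (SE 0.116, 2.25-fold, adjusted p 0.00566) at 48 h. Crtam was the member whose calls held at both times whichever array was left out, at 1.22 to 1.37 and 1.12 to 1.22. With normexp the differences were 0.85 and 0.76, both still called. The step from 24 h to 48 h was -0.12 with an adjusted p of 0.679.

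Klrg1, an inhibitory lectin-like receptor of NK cells and differentiated T cells, was dim in Control cells. Its probe (mm9 chr6:122220629-122220688) read -4.29 and -5.09 there, -2.74 and -2.61 at 24 h, and -2.10 and -2.27 at 48 h. It was well above background on all arrays but Control replicate 2. Every stimulated array exceeded both Control arrays by more than 1.5 log2 units. The log2 difference was 2.02 (SE 0.27) at 24 h, 4.05-fold with an adjusted p of 0.012, and 2.51 (SE 0.27) at 48 h, 5.69-fold with an adjusted p of 0.00712. These sizes depended on the treatment of background, since with normexp they were 0.69 and 0.95, with adjusted p of 0.00814 and 0.0018. At 24 h the call was lost without 24H CSF1 replicate 1 (adjusted p 0.0565) and without 24H CSF1 replicate 2 (adjusted p 0.0633).

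Ctla4, the inhibitory receptor of T cells for Cd80 and Cd86, was near background. Its probe (mm9 chr1:60971801-60971860) read -5.64 and -5.39 in Control cells, -4.10 and -4.52 at 24 h, and -3.98 and -4.02 at 48 h. It was well above background on 0 Control arrays, on 1 of 2 arrays at 24 h and on both at 48 h, with no overlap between Control and stimulated arrays. The fitted log2 differences were 1.2 (SE 0.18, adjusted p 0.0164) at 24 h and 1.52 (SE 0.18, adjusted p 0.00915) at 48 h. Since the Control arrays give only an upper limit, Ctla4 was at least 1.65-fold higher at 48 h. The limit used is the lowest signal among probes well above background on each Control array. No such bound is given at 24 h, where 1 of the 2 arrays was itself not well above background. With normexp the differences were 0.21 (adjusted p 0.273) and 0.29 (adjusted p 0.143), so neither call was kept, and with quantile normalization the 24 h difference was 0.58 (adjusted p 0.0933). At 24 h the call was also lost without either Control array or 24H CSF1 replicate 1, with adjusted p up to 0.0771, and at 48 h without Control replicate 1 or 48H CSF1 replicate 2, with adjusted p up to 0.0581.

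**Figure D2:**
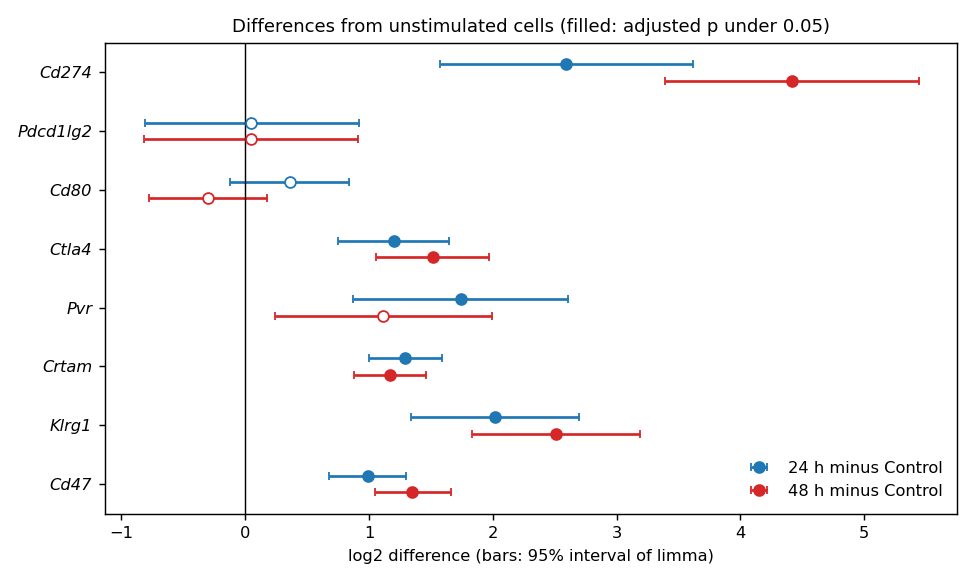
Log2 difference from Control (horizontal axis) of the 8 genes tested, in the 24H CSF1 (blue) and 48H CSF1 (red) groups, with the 95% interval from limma; filled points had an adjusted p under 0.05. Cd274 at 48 h stands farthest right at 4.42, the intervals of Pdcd1lg2 and Cd80 include 0, and Pvr is filled at 24 h and open at 48 h.

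Between 24 h and 48 h, 0 of the 8 genes were called by limma, and 0 of all genes tested (0%). At an unadjusted p under 0.05, Cd274 and Cd47 were higher and Cd80 was lower at 48 h, 3 of the 8, beside 13.6% of all genes tested. With the additional requirement of a 2-fold change Cd274 alone was left, beside 0.869% of all genes that were higher by that rule. The steps of Klrg1 and Ctla4 were 0.49 (adjusted p 0.487) and 0.31 (adjusted p 0.503).

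Whether the lymphocyte receptor signals moved with markers of lymphocytes was read from a list of 15 such genes, of which 14 had a probe. Of the 11 tested, 0 were called at either time by limma, beside 14% of all genes called at each time. At an unadjusted p under 0.05 there were 4 at 24 h and 2 at 48 h, beside 31.3% and 30.9% of all genes. The median log2 differences of the 11 were 0.27 and 0.24. The summed linear level of the 14, in units of the 75th percentile signal, was 26.5 to 32.1 in Control cells, 30 to 31.7 at 24 h and 29.8 to 37.6 at 48 h, and 9 to 12 of them were well above background on an array. Cd3g of the T cell receptor complex and Ms4a1 of B cells were well above background on 0 arrays, whereas 9 of the 14 were so on all 6. Among the latter were Cd3e (2.24 to 2.67), also of the T cell receptor complex, the T cell coreceptor gene Cd4 (3.69 to 4.47) and Nkg7 of cytotoxic cells (2.35 to 2.63). Most of the summed level came from these 3 probes, so it is not a measure of the list as a whole. Ptprc, the common leukocyte antigen, was dim at -4.01 to -2.99 and was not called (log2 difference 0.68 with an adjusted p of 0.0872 at 24 h, 0.15 with 0.685 at 48 h). In the list of 12 macrophage and dendritic cell markers, 2 of 9 tested were called higher at each time, beside 8.02% and 6.58% of all genes. At both times they were the mannose receptor gene Mrc1 (4.27 and 3.56) and Cd14 (0.87 and 0.69). Itgax, Lyz2 and H2-Aa were well above background on 0 arrays. Well above background on all 6 were 8 of the 12, among them Adgre1 (-2.9 to -2.48), Cd74 (-3.6 to -2.69) and Itgam (4.4 to 5.4), the last with a log2 difference of -0.65 at 48 h (unadjusted p 0.0302, adjusted p 0.12). The summed level of these 12 was 74.4 to 75.3 in Control cells, 73.8 to 75.3 at 24 h and 56.5 to 67.2 at 48 h, nearly all of it from Itgam and from Csf1r, the gene of the receptor these cells were transduced with, so it does not measure myeloid cells. The part of other cells in the member signals was not tested, and on bulk RNA more cells of a type and more RNA per cell cannot be told apart.

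Partners of the member proteins were followed with a list of 15 genes, all with a probe and 9 of them tested. Cmtm6, which keeps PD-L1 at the cell surface, read 1.03 and 0.98 in Control cells, 2.18 and 2.20 at 24 h, and 2.01 and 2.09 at 48 h. It rose by 1.19 (adjusted p 0.00447) and 1.04 (adjusted p 0.0057), with no overlap between Control and stimulated arrays. Rgmb, a binding partner of PD-L2, rose by 0.91 (adjusted p 0.011) and 0.96 (adjusted p 0.01). Thbs1, a secreted ligand of Cd47, fell by 1.87 at 24 h (adjusted p 0.0326) and not called at 48 h (-0.98, adjusted p 0.146). Tigit, the receptor of Pvr, was called at 48 h (2.03, adjusted p 0.0436) but not at 24 h (0.73, adjusted p 0.344), and was well above background on 1 of 2 arrays both in Control cells and at 24 h. Tigit thus entered the test only through the 48H CSF1 arrays, where it was highest, and its difference is measured against a group partly at background. The genes of PD-1 (Pdcd1), Cd226, E-cadherin (Cdh1) and Sirpa were well above background on 0 arrays, and those of Cd96 and Cadm1 on 1 array each. Cdh2, the other cadherin gene of the list, was well above background on every array. It was not called by limma (-0.43 with an adjusted p of 0.0771 at 24 h, -0.46 with 0.0645 at 48 h). In all, 2 of the 9 were higher and 1 lower at 24 h, beside 8.02% and 5.99% of all genes. At 48 h 3 were higher and 0 lower, beside 6.58% and 7.39% of all genes. The medians of the 9 were 0.4 and 0.41.

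**Figure D3:**
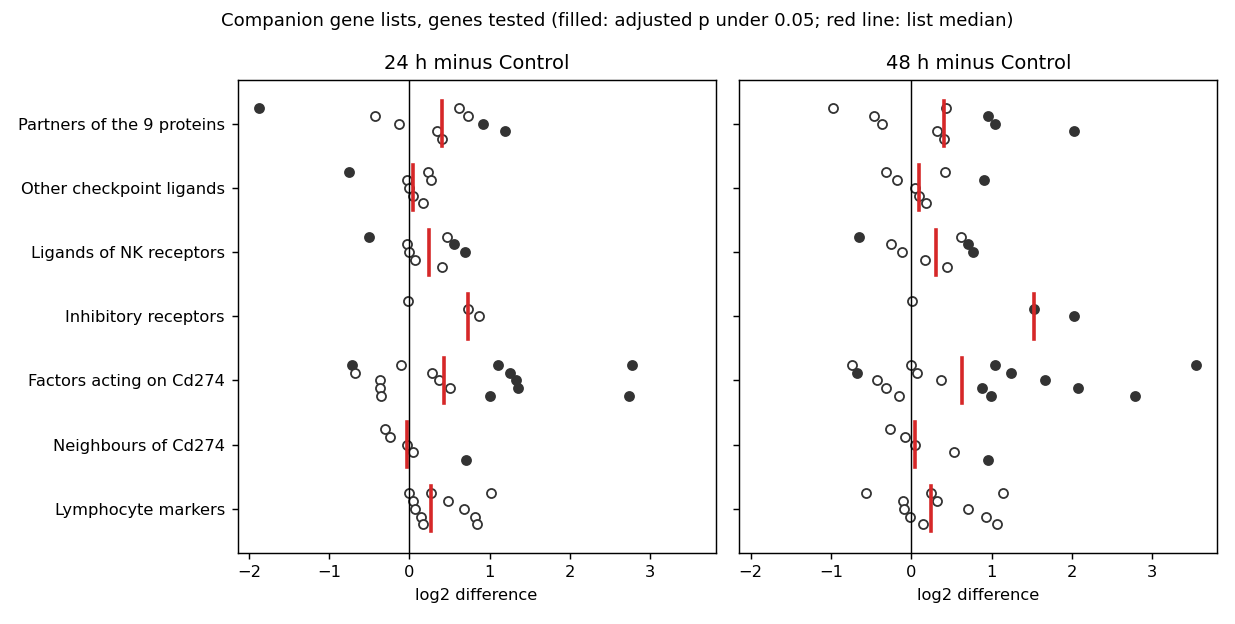
Log2 difference from Control (horizontal axis) of the tested genes of the companion lists other than the macrophage and prostate markers, at 24 h (left) and 48 h (right); each point is a gene, filled where its adjusted p was under 0.05, and red lines are list medians. The farthest points to the right in these lists are Stat2 and Irf9 at 24 h and Stat2 at 48 h among the factors acting on Cd274, and the lymphocyte markers hold 0 filled points.

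Further ligands and receptors were followed with 3 lists. Of 15 further checkpoint ligands, 7 were tested, and Cd276 (B7-H3) was lower at 24 h (-0.75, adjusted p 0.0404) and not called at 48 h (-0.18, adjusted p 0.515). Lgals9, the galectin that binds Havcr2, was called higher at 48 h (0.9, adjusted p 0.025) and not at 24 h (0.04, adjusted p 0.897). Of 15 ligands of NK cell receptors, 10 had a probe and 8 were tested, of which 2 were higher and 1 lower at each time. Over all genes 8.02% were called higher and 5.99% lower at 24 h, and 6.58% and 7.39% at 48 h. Raet1e, a stress ligand of the activating receptor NKG2D, rose by 0.69 (adjusted p 0.0211) and 0.71 (adjusted p 0.0203). Nectin3, named Pvrl3 in the files, an adhesion molecule of the family to which Pvr belongs, fell by 0.51 (adjusted p 0.0388) and 0.65 (adjusted p 0.0219). Of 13 inhibitory receptors of lymphocytes, 3 were tested, and Havcr2 (TIM-3) and Tigit were called higher at 48 h, Havcr2 by 1.53 (adjusted p 0.0463), with Tigit tested only because of its 48H CSF1 arrays. The medians were 0.04 and 0.1 for the further ligands, 0.24 and 0.3 for the NK ligands, and 0.73 and 1.53 for the 3 receptors, Tigit included.

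Factors known to act on Cd274 transcription made up a list of 16 genes, all of them tested. At 24 h 7 were higher and 1 lower, beside 8.02% and 5.99% of all genes. At 48 h 8 were higher and 1 lower, beside 6.58% and 7.39% of all genes. Higher at both times, which share the Control arrays, were 7 of the list, and the share of all genes higher at both times was not counted. The medians of the list were 0.44 and 0.62. Stat2, which with Irf9 belongs to the complex that carries the type I interferon signal, read -0.83 and -0.57 in Control cells, 1.93 and 2.21 at 24 h, and 2.71 and 2.98 at 48 h. It rose by 2.77 (adjusted p 0.00235) and 3.54 (adjusted p 0.00127), with no overlap between the 3 groups. Irf9 rose by 2.73 (adjusted p 0.00437) and 2.79 (adjusted p 0.00373). Irf1, the factor through which interferon gamma is known to raise PD-L1, read 1.42 and 1.31 in Control cells, 2.56 and 2.66 at 24 h, and 3.11 and 3.76 at 48 h. It rose by 1.25 (adjusted p 0.0262) and 2.08 (adjusted p 0.00737), with no overlap between the 3 groups. Whether Irf1 or another factor of the list acted on Cd274 in these cells was not tested. Jak2, Stat3, Hif1a and the feedback inhibitor gene Socs1 were the other genes called higher at both times, at 0.88 to 1.66. Ifngr1, the ligand-binding chain of the interferon gamma receptor, fell by 0.71 (adjusted p 0.015) and 0.68 (adjusted p 0.0172), and Nfkb1, Rela and Myc were not called.

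The neighbours of Cd274 on chromosome 19 were 6 genes. In the RefSeq order Insl6, Rln1 and Plgrkt lie on one side and Pdcd1lg2, Ric1 and Ermp1 on the other, and 5 of these 6 were tested. Insl6, an insulin-like hormone gene, was the one called, at 0.7 (adjusted p 0.0395) and 0.95 (adjusted p 0.0191), beside 14% of all genes called at each time. The nearest genes on either side, Plgrkt and Pdcd1lg2 by its brighter probe, gave -0.24 and 0.05 at 24 h and -0.08 and 0.05 at 48 h, with adjusted p from 0.212 to 0.948. The other Pdcd1lg2 probe was at least 1.9-fold higher at 24 h, with a limma p of 0.0906 adjusted over all probes. Ric1 gave -0.3 and -0.26 and Ermp1 -0.03 and 0.53, none of them called, and Rln1 was well above background on 0 arrays.

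Genes with the profiles nearest to the members were found over the 6 arrays among 13832 candidates, by the root mean square (RMS) difference of centred log2 values, as a description of points that share the same arrays. Nearest to Cd274 was Tmem140 (RMS 0.218), followed by H2-Bl (0.324), a class I histocompatibility gene, and the chemokine gene Ccl8 (0.327). Nearest to Crtam were Plxna4 (0.0721), Plat (0.0775), which encodes tissue plasminogen activator, and Cnp (0.0801). Slc41a3 (0.0785), Lgmn (0.0816) and Capg (0.0914) were nearest to Cd47. Nearest to Klrg1 were Disp2 (0.225), Gap43 (0.226) and Sema3a (0.227), and nearest to Ctla4 were Etv1 (0.092), Tmem179 (0.114) and Map2k6 (0.115).

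**Figure D4:**
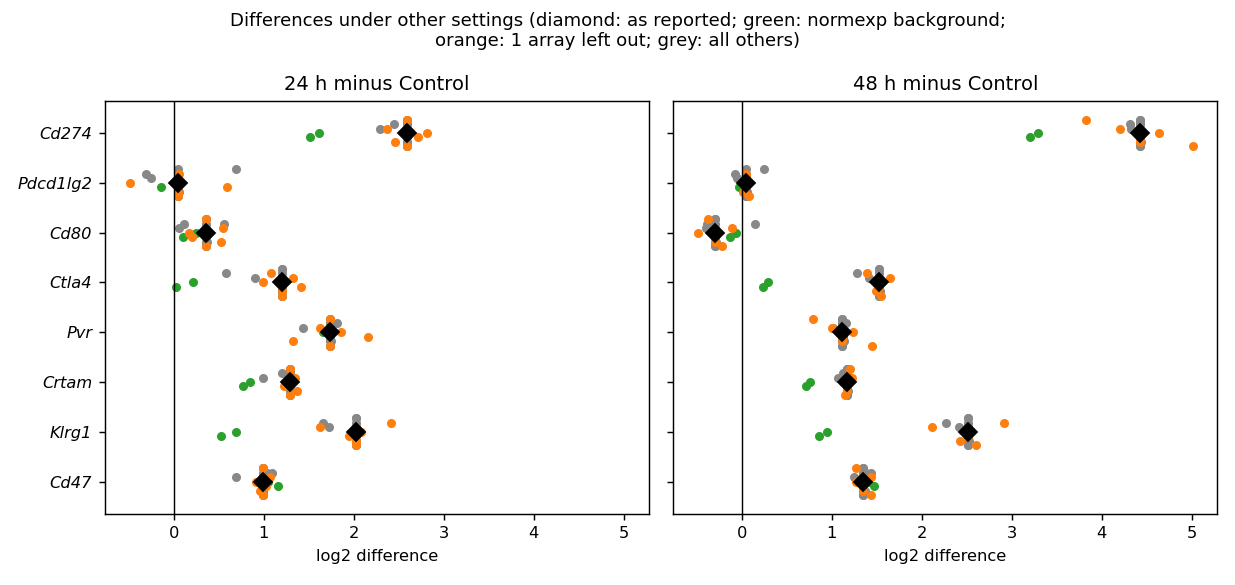
Log2 difference from Control (horizontal axis) of the 8 genes tested under each setting, at 24 h (left) and 48 h (right); the diamond is the value as reported, green points use normexp background correction, orange points leave out 1 array and grey points are all other settings. Cd47 at 48 h lies between 1.25 and 1.47, whereas with normexp Klrg1 is at 0.69 and Ctla4 at 0.21 at 24 h, and Pdcd1lg2 spreads on both sides of 0.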

How the data were processed

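Total RNA from N18-Fms cells, said in the labels to come from independent experiments, was read on 6 arrays, whose groups and replicate numbers were taken from the labels. The authors scanned each array with Agilent Feature Extraction 11.0.1 (11.0.1.1 in the file headers). They deposited for each spot the background-subtracted signal, a linear intensity not normalized between arrays, which was used here with the flags of the software. The mean and local background intensity deposited beside it were used for normexp. For 44323 probes the authors deposited log2 values as well, with normalization not given in the sources used here. Their differences between arrays followed those of the signals, 99.78% within 0.05 once each array's constant was removed, and their medians per array, -0.038 to 0.173, leave the baseline unknown.

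From the signals, outlier spots were left out (303 probes had no other), spots of a probe were averaged, and log2 minus the 75th percentile was taken. The brightest probe by its mean over the 6 arrays stood for a gene. A gene was tested where the 2 arrays of some group both had it well above background (24634 genes, of which 15618 were matched to RefSeq symbols). All arrays entered 1 fit of limma 3.58.1 (2-sided, 3 residual and 2.39 prior degrees of freedom) in R 4.3.3, with data.table (version 1.17.8), and p-values were Benjamini-Hochberg adjusted over every gene in the fit. Simulated data were used to test the fit. An exact permutation test of 2 against 2 arrays cannot go below 0.333 and was not used. The number of arrays limits the precision, and p-values measure the spread between these arrays.

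Probe positions are those of the files on mm9, and no annotation of exons on that build was used. Named were all 9 members with every probe, from each list up to 3 genes with the greatest mean change, taken from those past the threshold at 24 h and 48 h, and the 3 nearest profiles of each member called at both times; other list genes in the text were named after their values were seen. The members and lists were chosen with earlier results of these data known. Alternatives were other normalizations, normexp with an offset of 50, the authors' log2 values, other filters, probe rules and priors, only the groups compared, a replicate block, an unadjusted p under 0.05 with a 2-fold change, the t-test that the methods name for the study in general, and leaving out each array. Some genes of the lists enter the counts but are not reported here by name.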

Additional observations from a re-analysis of the deposited data

How the results depend on the processing

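Over all alternatives, the calls at 48 h of Cd274, Crtam and Cd47 were each kept in 20 of 21, and the exception was the t-test after adjustment. The count of 6 at 24 h was 3 with no filter on dim probes and 2 to 6 with 1 array left out, and the count of 5 at 48 h was 3 where only genes well above background on all 6 arrays were tested, which left 5 members, and 4 to 5 with 1 array left out. The methods' t-test called 4 members at 24 h and 5 at 48 h at an unadjusted p under 0.05 and 2-fold, and 0 at both times after Benjamini-Hochberg adjustment, as it did over all genes. At the same thresholds limma called 5 and 6, and 1 member, Cd274, between the times. Over all genes, the 3452 and 3440 calls became 1319 and 870 with no filter, 1351 and 1160 with the t-test at those thresholds, 1892 and 1596 with limma at them, 5477 at 48 h with an intensity trend and 2114 at 48 h with only the groups compared. Without 1 array they were 899 to 2537 at 24 h and 891 to 2114 at 48 h. The 0 calls between the times became 7 with median centring, 210 and 286 with normexp, 195 with the trend, 5 with all 6 arrays above background and up to 11 without 1 array.

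With the replicate number as a block, 6 members were called at 24 h, 6 at 48 h, which adds Pvr (1.11, adjusted p 0.0325), and 0 between the times. Deviations of arrays with the same number correlated at 0.128, 0.0942 and 0.199 between pairs of groups, so the numbers were not taken to pair the arrays.

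The direction turned for members that were not called. Pdcd1lg2 at 24 h was -0.31 with quantile normalization, -0.25 with median centring, -0.14 with normexp and quantiles and -0.49 to 0.59 with 1 array left out (-0.49 without 24H CSF1 replicate 1), and at 48 h -0.08, -0.06 and -0.03 under the first 3. Between the times, Pdcd1lg2 was 0.23, 0.19 and 0.11 under these, 0.00 with the authors' values and -0.55 to 0.53 with 1 array left out, with 0.53 without 24H CSF1 replicate 1 and 0.03 without 48H CSF1 replicate 2. Cd80 at 48 h was 0.14 with the mean of its probes, and Crtam between the times 0.08 with median centring. Median centring moved the median of all genes to -0.265 at 24 h, -0.147 at 48 h and 0.115 between the times. Where 1 array was left out, the lone array of its group was assumed to vary like those of the other groups. The causes were not tested. Signal over background limited Ctla4, Klrg1, Pdcd1lg2 and Cd86 most.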
